A study of Mus musculus with 18 samples.

Results

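The genes described here are 29 genes of sterol and fatty acid synthesis, taken from the 23951 genes of the expression table by their symbols. They comprise 16 enzymes of the mevalonate and cholesterol pathway, 4 genes of sterol-dependent control and sterol transport, 5 genes of acetyl-CoA supply and fatty acid synthesis and 4 fatty acid desaturases and elongases. All 29 symbols were present in the table. RNA was sequenced from 18 libraries of epidermal cells sorted from ear skin at day 7 after tamoxifen induction, 3 mice in each of 6 groups. Bulge hair follicle stem cells (HF-SCs) were sorted as CD34+ and basal keratinocytes (b-KCs) as CD34- cells, both CD45- with high CD49f, the integrin α6 of basal epidermal cells.

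The mutant mice, called DKO*, carried floxed alleles of JunB and c-Jun, K5-Cre-ERT and the mT/mG reporter, in which cells lose membrane Tomato and gain membrane GFP once Cre has acted. They develop a psoriasis-like disease after tamoxifen, which was injected 4 times at 2 mg a day into mice 8 weeks old. From each of the DKO* mice 814, 815 and 817 the GFP cells (mutant) and the Tomato cells (Tom, non-mutant) of both cell types were sequenced, so the 4 DKO* populations come from the same mice and each mutant fraction has a non-mutant fraction beside it. Control mice (Co) 810, 825 and 828 also carried K5-Cre-ERT and mT/mG, with wild-type or heterozygous floxed alleles. Whether control cells were gated on a reporter colour is not given in the sources used here. K5 is active in all basal cells of skin, so deletion was not limited to the bulge.

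Cholesterol is made from acetyl-CoA through mevalonate, isoprenoid diphosphates and squalene, and fatty acids are made from the same precursor through malonyl-CoA. Both pathways are switched on by sterol regulatory element binding proteins (SREBPs), membrane-bound transcription factors that are held in the endoplasmic reticulum by INSIG proteins when sterols are plentiful and released by proteolysis when they are scarce. In skin, basal keratinocytes make sterols for new membranes, differentiating keratinocytes make lipids of the barrier, and sebocytes make the lipids of sebum.

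Values are FPKM, sequenced fragments per length of transcript and per size of library, so levels can be compared between genes as well as between libraries. Whether the libraries were also normalized against each other is not given in the sources used here. Genes that reached 1 FPKM in 3 or more libraries, 12751 in number, entered a limma model of log2(FPKM + 1) that fitted the 6 group means, and p-values were adjusted by Benjamini-Hochberg over all of them. Calls required an adjusted p under 0.05. Fold changes are given on this log2 scale with their standard error (SE), and the added 1 makes changes of weakly expressed genes look smaller than they are. Of the 29 genes 27 were tested. Elovl2 reached at most 0.126 FPKM, and Hmgcs1, the enzyme before the rate-limiting step of the pathway, was among 4027 genes of the table listed at 0 in all 18 libraries. A value of exactly 0 can be a failed estimate, so no level is read from it. Fads2 passed the filter through 4 libraries alone, all of them GFP or Tom libraries of HF-SCs.

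The depth implied by the steps between low FPKM values was 16400000 to 26300000 reads per library, and 3 reads on a transcript of 1 kb were then worth 0.114 to 0.182 FPKM. Intervals and floors of this kind cover counting error only. The labels were checked by the targeted genes. Jun ran from 835 to 1086 FPKM among control HF-SCs and from 30.4 to 88.4 among GFP HF-SCs, and Junb from 436 to 463 and from 38.6 to 77.5 FPKM. In Tom cells, labelled non-mutant, Jun was lower than in Co as well, with log2 fold changes of -1.30 ± 0.40 (adjusted p = 0.0155, limma) in HF-SCs and -1.94 ± 0.40 (adjusted p = 0.00114, limma) in b-KCs. The values for Junb were -0.56 ± 0.30 (adjusted p = 0.147, limma) and -1.27 ± 0.30 (adjusted p = 0.00308, limma). Mouse 817 stood apart from mice 814 and 815 in 3 of its 4 libraries. The median of the 27 tested genes, as log2(FPKM + 1) minus the control HF-SC mean, was 0.61 in its GFP HF-SC library against 1.30 and 1.16, 0.97 among GFP b-KCs against 1.45 and 1.42, and 0.91 among Tom b-KCs against 1.35 and 1.30, whereas among Tom HF-SCs it was 0.68 against 0.48 and 0.61. Among control b-KCs mouse 828 stood apart in the same way, at 0.98 against 1.53 and 1.42 in mice 810 and 825. Results that turn on mouse 817 are given with and without it. Cd34, the sorting marker, was at 889, 639.8 and 680.2 FPKM in the control HF-SC libraries and at 2.04, 1.13 and 1.18 FPKM among control b-KCs, and Krt5, a keratin of basal cells, was at 2299 FPKM or more in every library.

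Promoters are shown for 6 genes, each as 1 window from 250 bases before to 50 bases after the start of transcription, from RefSeq on GRCm38.p6. Hmgcs1 is the member whose window holds the sterol regulatory element in the form searched. Mvd, Idi1, Cyp51, Hsd17b7 and Insig1 are members with large changes in mutant HF-SCs. Capitals mark the sterol regulatory element TCACNCCAC, the E-box CACGTG and the NF-Y box CCAAT, each searched on both strands, on which CCAAT reads ATTGG.
Hmgcs1 (chr13:119690101-119690400, plus strand): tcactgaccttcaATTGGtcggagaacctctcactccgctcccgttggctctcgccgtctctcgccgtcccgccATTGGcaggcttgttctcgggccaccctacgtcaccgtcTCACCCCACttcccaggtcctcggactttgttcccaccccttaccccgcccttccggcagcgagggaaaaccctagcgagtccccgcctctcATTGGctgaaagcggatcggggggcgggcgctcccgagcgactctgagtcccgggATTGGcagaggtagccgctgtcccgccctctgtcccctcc
Mvd (chr8:122443373-122443672, minus strand): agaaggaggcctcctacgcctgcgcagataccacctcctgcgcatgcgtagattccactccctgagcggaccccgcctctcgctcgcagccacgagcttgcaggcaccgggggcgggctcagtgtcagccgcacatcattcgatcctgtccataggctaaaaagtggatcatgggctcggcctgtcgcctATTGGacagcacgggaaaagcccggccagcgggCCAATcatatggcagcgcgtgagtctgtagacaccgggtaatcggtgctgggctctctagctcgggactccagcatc
Idi1 (chr13:8885356-8885655, plus strand): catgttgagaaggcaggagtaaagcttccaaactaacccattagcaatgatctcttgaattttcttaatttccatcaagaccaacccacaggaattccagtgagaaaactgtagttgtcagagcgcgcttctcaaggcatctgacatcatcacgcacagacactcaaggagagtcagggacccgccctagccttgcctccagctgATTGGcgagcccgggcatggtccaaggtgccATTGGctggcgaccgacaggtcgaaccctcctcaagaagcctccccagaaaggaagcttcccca
Cyp51 (chr5:4104648-4104947, minus strand): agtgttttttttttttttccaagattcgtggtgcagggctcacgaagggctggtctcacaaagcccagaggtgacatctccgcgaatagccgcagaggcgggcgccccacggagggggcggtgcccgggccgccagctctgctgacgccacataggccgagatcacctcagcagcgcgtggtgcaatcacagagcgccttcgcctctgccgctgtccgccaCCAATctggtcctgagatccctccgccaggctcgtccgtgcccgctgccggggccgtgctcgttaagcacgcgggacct
Hsd17b7 (chr1:169969156-169969455, minus strand): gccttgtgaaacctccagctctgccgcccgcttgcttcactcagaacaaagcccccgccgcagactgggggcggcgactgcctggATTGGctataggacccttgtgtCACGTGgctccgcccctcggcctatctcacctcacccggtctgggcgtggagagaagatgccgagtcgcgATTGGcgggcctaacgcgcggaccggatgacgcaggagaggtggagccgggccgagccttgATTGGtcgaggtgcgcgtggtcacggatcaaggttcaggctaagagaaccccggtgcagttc
Insig1 (chr5:28071162-28071461, plus strand): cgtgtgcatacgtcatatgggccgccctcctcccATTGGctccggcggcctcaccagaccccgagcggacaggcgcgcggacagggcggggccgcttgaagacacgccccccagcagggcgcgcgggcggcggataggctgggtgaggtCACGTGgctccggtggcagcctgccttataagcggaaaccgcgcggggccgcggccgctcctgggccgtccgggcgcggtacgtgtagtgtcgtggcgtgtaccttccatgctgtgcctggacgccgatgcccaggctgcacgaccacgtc
Windows were found for 23 of the 29 genes. The sterol regulatory element in this form was present in Hmgcs1 alone among them, and in 1.44% of all genes and 1.24% of the 32851 windows of the table. The E-box stood in a window of 3 members, Hsd17b7, Insig1 and Dhcr7, against 8.09% of all genes and 7.15% of all windows. CCAAT stood in at least 1 window of 19 of the 23 members, against 41.1% of all genes and 37.4% of all windows in the table. These matches describe letters and are not bound sites, and no binding was measured in these libraries.

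In control mice, b-KCs had higher levels than bulge HF-SCs for nearly all of these genes. Of the 27 genes tested 23 were lower and 1 was higher among control HF-SCs than among control b-KCs, where 27.3% of all genes tested were lower and 24.6% were higher. The median difference was -1.37 on the log2 scale, beside -0.06 over all genes tested. Me1, malic enzyme, which supplies NADPH for fatty acid synthesis, measured 7.52, 8.18 and 7.28 FPKM among control HF-SCs and 69.8, 58.4 and 51.1 FPKM among control b-KCs. Its log2 difference was -2.80 ± 0.51 (adjusted p = 0.000303, limma), the largest among the members. Mvd, which decarboxylates mevalonate diphosphate, measured 3.41, 5.75 and 3.47 FPKM among control HF-SCs and 36.5, 34 and 20.5 FPKM among control b-KCs, a difference of -2.58 ± 0.40 (adjusted p = 7.13e-05, limma). For all members called lower, each control HF-SC library lay below each control b-KC library. This in part restates the call, and the same was not counted over all genes.

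The exception was Fads1, a desaturase of polyunsaturated fatty acids, with 4.4, 4.95 and 5.57 FPKM among control HF-SCs and 0.822, 0.792 and 0.808 FPKM among control b-KCs. It was higher among control HF-SCs by 1.72 ± 0.21 (adjusted p = 5.94e-06, limma). Fads2, the desaturase that acts with it, measured 0.162, 0.39 and 0.245 FPKM among control HF-SCs and 0.114, 0.0293 and 0.0975 FPKM among control b-KCs, levels near the lower limit of measurement, and its difference was 0.23 ± 0.20 (adjusted p = 0.359, limma). Pmvk and Tm7sf2 were not called. The adipocyte markers, a source of fatty acid enzymes in skin, summed to at most 0.519 FPKM over 6 genes in any library. Markers of sebocytes, which also make sterols and fatty acids, were lower among control HF-SCs than among control b-KCs for 6 of the 7 tested, and their summed level over 8 genes was 44.5 to 77.9 FPKM among control HF-SCs and 228 to 382 FPKM among control b-KCs, most of it Mgst1. The 6 proliferation markers were also lower among control HF-SCs, with sums of 21.2 to 27.3 against 140.0 to 145 FPKM, and so were the 6 suprabasal markers, with sums of 465 to 614 against 4162 to 5141 FPKM. In the other direction 9 of the 10 endothelial markers were higher among control HF-SCs, with sums of 53 to 89.4 against 1.5 to 2.62 FPKM, and so were all 5 fibroblast markers tested, with sums over 7 genes of 46.6 to 96.1 against 4.36 to 6.24 FPKM. The part of these cells in the difference was not tested. In sorted populations such as these, fewer cells of a type and less RNA per cell cannot be told apart.

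**Figure D1:**
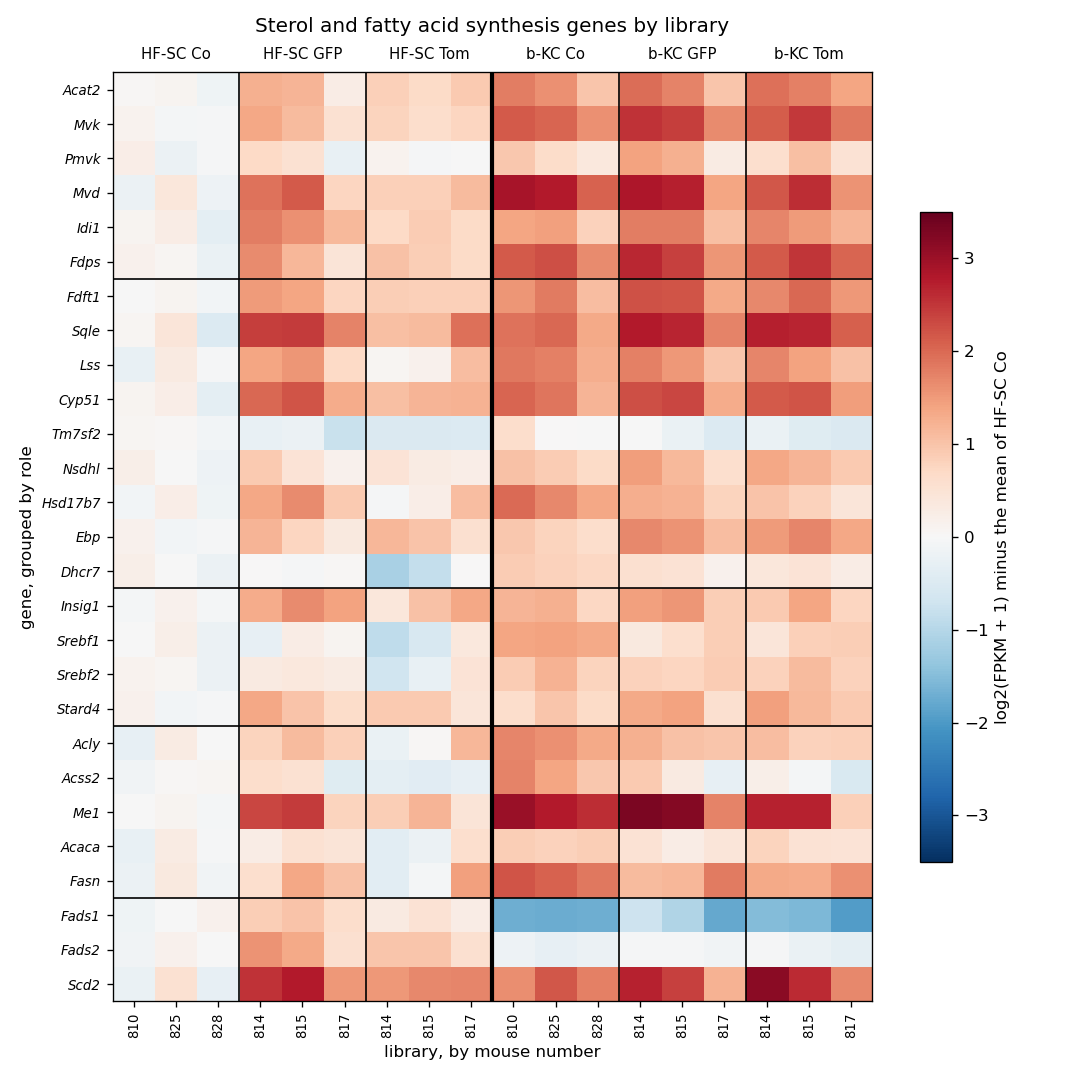
Level of the 27 tested genes (lines, grouped by role as in the text) in each of the 18 libraries (columns, by mouse number), as log2(FPKM + 1) minus the mean of the 3 control HF-SC libraries, red for higher and blue for lower. The median over the genes was 1.30, 1.16 and 0.61 among GFP HF-SCs of mice 814, 815 and 817 and 0.98 to 1.53 among control b-KCs.

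Most of these genes were called higher in mutant HF-SCs than in control HF-SCs, among them 11 of the 15 tested enzymes of the mevalonate and cholesterol pathway. In GFP HF-SCs 19 of the 27 genes tested were higher than among control HF-SCs and 0 were lower, where 18.5% of all genes tested were higher and 20.0% were lower. At unadjusted p under 0.05, 21 genes passed, 1 of them, Tm7sf2, with a negative fold change, where 47.5% of all genes tested passed. The median log2 fold change of the 27 genes was 1.00, beside -0.05 over all genes tested. Fads2, which passed the filter only through DKO* HF-SC libraries, is among the 19. By a stricter rule, an adjusted p under 0.01 and a log2 fold change of 2 or more in either direction, only Sqle and Scd2 passed, where 3.07% of all genes did. Without mouse 815 the count fell to 11 of the 27 genes, where 13.4% of all genes tested were higher, and without mouse 817 it was 22, where 51.5% of all genes tested were called in either direction.

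Non-mutant HF-SCs of the same mice were set against the same 3 control libraries, so the comparisons share their controls. In Tom HF-SCs 12 of the 27 genes were higher than among control HF-SCs and 2, Tm7sf2 and Dhcr7, were lower, where 22.3% of all genes tested were higher and 22.1% were lower. Fads2 is again among the 12. The median log2 fold change was 0.72, beside -0.04 over all genes. None passed the stricter rule, by which 4.09% of all genes were called, and 15 of the 27 passed at unadjusted p under 0.05, where 51.6% of all genes did. The number of calls fell from 14 to 8 without mouse 825, 828 or 814 and to 7 without mouse 815, where 31.0 to 35.0% of all genes tested were called, and it was 19 without mouse 817, where 59.4% were.

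**Figure D2:**
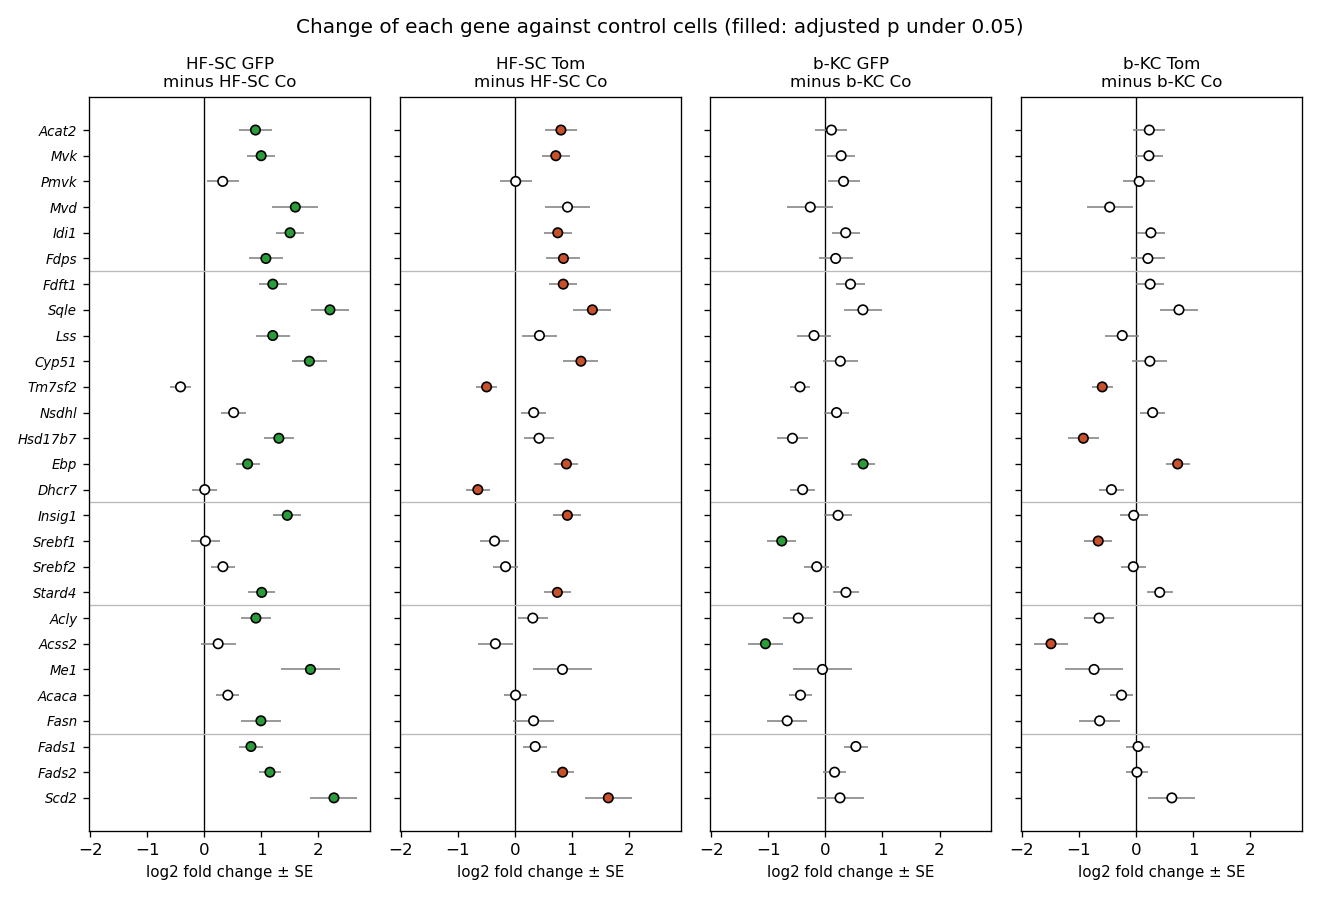
Log2 fold change of each tested gene against control cells of the same type (points, with SE), for GFP HF-SCs, Tom HF-SCs, GFP b-KCs and Tom b-KCs, with filled points for an adjusted p under 0.05. In GFP HF-SCs 19 genes are filled on the right of 0 and none on the left, and among GFP b-KCs 1 is filled on the right and 2 on the left.

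The mevalonate pathway converts acetoacetyl-CoA to isoprenoid diphosphates. In GFP HF-SCs 5 of its 6 genes tested were higher than in Co, and among Tom HF-SCs 4. Mvd (chromosome 8, 124957496 to 124967322, NCBIM37) measured 17.9, 21.5 and 7.63 FPKM among GFP HF-SCs and 8.07, 8.12 and 9.95 FPKM among Tom HF-SCs, beside the control values above, all below both. Its log2 fold change against Co was 1.60 ± 0.40 (adjusted p = 0.00545, limma) in GFP and 0.92 ± 0.40 (adjusted p = 0.0745, limma) in Tom, the second short of the threshold.

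Idi1 (chromosome 13, 8884852 to 8891641), the isomerase of isopentenyl diphosphate, was found at 54.4, 60.7 and 39.7 FPKM among control HF-SCs, 178, 156 and 112 for GFP HF-SCs and 82.6, 94.7 and 82 for Tom HF-SCs. The GFP libraries all exceeded the Tom libraries, which all exceeded the Co libraries. Against Co its log2 fold change was 1.50 ± 0.24 (adjusted p = 0.000182, limma) in GFP and 0.75 ± 0.24 (adjusted p = 0.0201, limma) in Tom.

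Fdps (chromosome 3, 88897514 to 88905881) makes farnesyl diphosphate, the last isoprenoid shared with protein prenylation. It measured 76.3, 71.9 and 58 FPKM among control HF-SCs, 216, 153 and 93.1 among GFP HF-SCs and 141, 124 and 109.8 among Tom HF-SCs, and its log2 fold change was 1.08 ± 0.30 (adjusted p = 0.00934, limma) in GFP and 0.85 ± 0.30 (adjusted p = 0.0297, limma) in Tom. The control libraries lay below all DKO* libraries, and the GFP and Tom libraries overlapped.

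Acat2, the thiolase that makes acetoacetyl-CoA, was found at 12.2, 12.7 and 10.5 FPKM among control HF-SCs, 29.1, 28.2 and 14.3 for GFP HF-SCs and 21.9, 19.2 and 23.2 for Tom HF-SCs, with log2 fold changes of 0.90 ± 0.28 (adjusted p = 0.0196, limma) and 0.81 ± 0.28 (adjusted p = 0.0297, limma). Mvk, mevalonate kinase, measured 12.8, 11.1 and 11.4 FPKM among control HF-SCs, 31.5, 26.5 and 17.5 among GFP HF-SCs and 21.1, 18.5 and 20.5 among Tom HF-SCs, with log2 fold changes of 1.00 ± 0.24 (adjusted p = 0.00419, limma) and 0.72 ± 0.24 (adjusted p = 0.0249, limma). In both genes each DKO* library exceeded each control library. Pmvk, the kinase that follows Mvk, was not called in either population. Acat2 has the close paralog Acat3, and reads were allowed to map to several places, so its level is uncertain.

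In the branch from squalene to cholesterol, 6 of 9 genes were higher among GFP HF-SCs than among controls, and 4 of 9 were higher and 2 lower among Tom HF-SCs. Sqle (chromosome 15, 59146632 to 59162747), squalene epoxidase, a rate-limiting enzyme of the later pathway, was found at 22.3, 28.7 and 14.8 FPKM among control HF-SCs, 118, 120.1 and 72.6 for GFP HF-SCs and 44.8, 46.4 and 83.8 for Tom HF-SCs. Each DKO* library exceeded each control library, and in mice 814 and 815, but not in 817, the GFP library exceeded the Tom library. The mean of GFP HF-SCs was 4.73 times that of Co, with a log2 fold change of 2.20 ± 0.33 (adjusted p = 0.000103, limma), and that of Tom was 2.66 times Co, with 1.36 ± 0.33 (adjusted p = 0.00394, limma).

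Cyp51 (chromosome 5, 4081145 to 4104746), lanosterol demethylase, measured 14.9, 16.7 and 10.9 FPKM among control HF-SCs, 59.5, 68 and 36 among GFP HF-SCs and 29.9, 33.4 and 34 among Tom HF-SCs. These 3 groups did not overlap. Its log2 fold change against Co was 1.84 ± 0.31 (adjusted p = 0.000233, limma) in GFP and 1.16 ± 0.31 (adjusted p = 0.00645, limma) in Tom.

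Hsd17b7 (chromosome 1, 171879666 to 171899372), a sterol ketoreductase whose promoter is printed above, was found at 6.3, 8.3 and 6.15 FPKM among control HF-SCs, 19.1, 23.5 and 13.9 for GFP HF-SCs and 6.63, 8.25 and 15.6 for Tom HF-SCs. Only the Tom library of mouse 817 lay above the range of control, whereas all GFP libraries did. Against Co its log2 fold change was 1.31 ± 0.27 (adjusted p = 0.00128, limma) in GFP and 0.42 ± 0.27 (adjusted p = 0.215, limma) in Tom.

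Ebp, the sterol isomerase of a later step, measured 24.8, 20.7 and 21.8 FPKM among control HF-SCs, 52.4, 38.1 and 28.6 among GFP HF-SCs and 50.8, 45.7 and 33.5 among Tom HF-SCs. It was higher than Co by 0.76 ± 0.21 (adjusted p = 0.01, limma) in GFP and 0.90 ± 0.21 (adjusted p = 0.00286, limma) in Tom, with no overlap of DKO* and control libraries. Fdft1 and Lss, squalene synthase and lanosterol synthase, were also higher among GFP HF-SCs, by 1.20 ± 0.25 and 1.20 ± 0.30 on the log2 scale (adjusted p = 0.00127 and 0.00529, limma). Fdft1 was higher among Tom HF-SCs as well, by 0.85 ± 0.25 (adjusted p = 0.0113, limma), whereas Lss was not called there. Of the exonic bases of Fdft1 26.9% are shared with Ctsb on the opposite strand, and since the libraries carry no strand information its level is uncertain.

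Tm7sf2, a sterol reductase, was lower among Tom HF-SCs than among controls. It was found at 3.76, 3.69 and 3.27 FPKM among control HF-SCs, 2.82, 2.93 and 1.68 for GFP HF-SCs and 2.21, 2.24 and 2.28 for Tom HF-SCs, and every DKO* library lay below every control library. The log2 fold change was -0.50 ± 0.18 (adjusted p = 0.0386, limma) in Tom, which passed, and -0.42 ± 0.18 (adjusted p = 0.0847, limma) in GFP, which did not. The call of Tm7sf2 in Tom was lost without any 1 of mice 810, 825, 828, 814 and 815. Its exons share 15.3% of their bases with 1110014N23Rik on the same strand. Dhcr7, the last reductase of the pathway, was lower among Tom HF-SCs, with a log2 fold change of -0.65 ± 0.22 (adjusted p = 0.0233, limma), and was close to control among GFP HF-SCs, at 0.01 ± 0.22, with a 95% interval of -0.45 to 0.47. The call of Dhcr7 in Tom was lost without mouse 810, 825, 814 or 815.

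**Figure D3:**
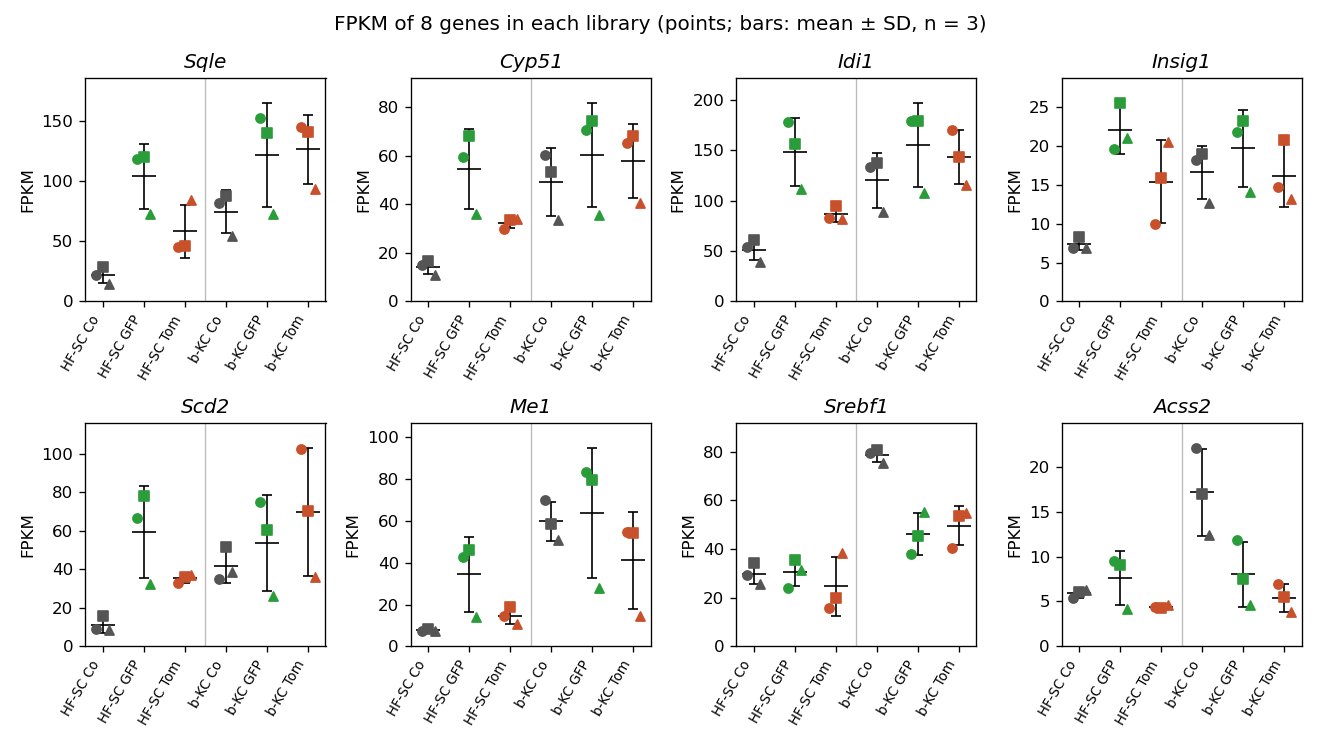
FPKM of 8 genes in each library (circles for mice 810 and 814, squares for 825 and 815, triangles for 828 and 817), with the mean ± SD of 3 libraries. Sqle runs from 14.8 to 28.7 FPKM among control HF-SCs and from 72.6 to 120.1 among GFP HF-SCs, and Srebf1 from 75.2 to 80.8 among control b-KCs and from 38.1 to 55.1 among GFP b-KCs.

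Of the 4 genes of control and transport 2, Insig1 and Stard4, were higher among GFP HF-SCs and among Tom HF-SCs, and neither SREBP gene was called. Insig1 (chromosome 5, 28397952 to 28405201), which retains SREBPs and is itself an SREBP target, measured 6.89, 8.29 and 6.9 FPKM among control HF-SCs, 19.5, 25.4 and 21 among GFP HF-SCs and 9.89, 15.8 and 20.4 among Tom HF-SCs. Every DKO* library exceeded every control library, and mouse 817 lay between mice 814 and 815 in GFP and above both in Tom. Its log2 fold change was 1.46 ± 0.25 (adjusted p = 0.000263, limma) in GFP and 0.92 ± 0.25 (adjusted p = 0.00681, limma) in Tom.

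Stard4, a carrier that moves cholesterol between membranes, was found at 8.46, 6.9 and 7.2 FPKM among control HF-SCs, 20.9, 16.1 and 12.3 for GFP HF-SCs and 15, 14.9 and 10.3 for Tom HF-SCs. It was higher by 1.01 ± 0.23 (adjusted p = 0.00293, limma) in GFP and 0.75 ± 0.23 (adjusted p = 0.0166, limma) in Tom, again without overlap with control.

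Srebf2 (chromosome 15, 81977696 to 82035806) encodes the SREBP that mainly drives sterol synthesis. It measured 35.2, 33.7 and 27.6 FPKM among control HF-SCs, 40.3, 42 and 39.1 among GFP HF-SCs and 19.2, 26.8 and 44.7 among Tom HF-SCs. The GFP libraries lay above the control libraries and the Tom libraries on both sides of them, and neither difference passed, at 0.33 ± 0.22 (adjusted p = 0.244, limma) and -0.16 ± 0.22 (adjusted p = 0.561, limma). The 95% interval of the GFP difference was -0.13 to 0.78 on the log2 scale.

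Srebf1 (chromosome 11, 60012591 to 60036083) encodes the SREBP that mainly drives fatty acid synthesis. It was found at 29.5, 34.2 and 25.8 FPKM among control HF-SCs, 24.2, 35.6 and 31.6 for GFP HF-SCs and 15.7, 19.9 and 38.4 for Tom HF-SCs. In HF-SCs all 3 groups overlapped, with log2 fold changes against Co of 0.02 ± 0.25 (adjusted p = 0.957, limma) in GFP and -0.36 ± 0.25 (adjusted p = 0.264, limma) in Tom. The 95% intervals were -0.51 to 0.55 and -0.89 to 0.17. These are transcript levels, and SREBP activity depends on cleavage of the protein, which was not measured here.

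Of the 5 genes of acetyl-CoA supply and fatty acid synthesis, 3 were higher among GFP HF-SCs than among controls and none passed among Tom HF-SCs, where 0 of the 5 did so at unadjusted p under 0.05 either. Me1 (chromosome 9, 86474970 to 86589947) measured 43, 46.3 and 13.9 FPKM among GFP HF-SCs and 14.7, 18.8 and 10.8 FPKM among Tom HF-SCs, all above the control libraries. In GFP mouse 817 was far below mice 814 and 815. Its log2 fold change was 1.86 ± 0.51 (adjusted p = 0.00928, limma) in GFP and 0.83 ± 0.51 (adjusted p = 0.2, limma) in Tom.

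Acly, which makes cytosolic acetyl-CoA from citrate, measured 27.1, 40.8 and 32.8 FPKM among control HF-SCs, 57.4, 72.4 and 59.8 among GFP HF-SCs and 27.8, 34 and 74.6 among Tom HF-SCs. Fasn, fatty acid synthase, was found at 8.45, 12.7 and 9.02 FPKM among control HF-SCs, 15.4, 26.9 and 21.4 for GFP HF-SCs and 7.4, 9.42 and 28.4 for Tom HF-SCs. For both genes all GFP libraries exceeded all control libraries, and among the Tom libraries only that of mouse 817 did. The log2 fold change in GFP was 0.91 ± 0.26 (adjusted p = 0.0129, limma) for Acly and 0.99 ± 0.35 (adjusted p = 0.0359, limma) for Fasn. Acaca, acetyl-CoA carboxylase, and Acss2, which makes acetyl-CoA from acetate, were not called.

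All 3 desaturases tested were higher among GFP HF-SCs than among controls, 1 of them, Fads2, with a call that follows in part from the filter. Scd2 (chromosome 19, 44368166 to 44381354), a stearoyl-CoA desaturase that makes oleate, measured 8.84, 15.9 and 8.55 FPKM among control HF-SCs, 66.9, 78.2 and 32.4 among GFP HF-SCs and 32.7, 36.3 and 37.1 among Tom HF-SCs. All DKO* libraries exceeded all control libraries. On the log2(FPKM + 1) scale its change of 2.27 ± 0.41 (adjusted p = 0.00048, limma) in GFP was the largest among the members, and it was 1.64 ± 0.41 (adjusted p = 0.0047, limma) in Tom. The mean of GFP HF-SCs was 5.33 times that of Co, a ratio by which members were not ranked.

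Fads1 rose from the control values above to 9.72, 10.9 and 8.1 FPKM among GFP HF-SCs, by 0.82 ± 0.21 (adjusted p = 0.00597, limma) on the log2 scale, and had 6.45, 7.4 and 6.07 FPKM among Tom HF-SCs, where its difference of 0.36 ± 0.21 (adjusted p = 0.181, limma) did not pass. Fads2 measured 2.73, 2.16 and 0.865 FPKM among GFP HF-SCs and 1.48, 1.46 and 0.874 FPKM among Tom HF-SCs, with log2 fold changes of 1.15 ± 0.20 (adjusted p = 0.000305, limma) and 0.84 ± 0.20 (adjusted p = 0.00304, limma). It passed the filter only through these libraries.

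Markers of other cells and states differed from Co too, not all in the same direction. The 10 endothelial markers summed to 53 to 89.4 FPKM among control HF-SCs, 1.2 to 31.1 among GFP HF-SCs and 451 to 1377 among Tom HF-SCs, and against Co 9 were lower in GFP and all 10 were higher in Tom. None of the 10 was at 0 throughout a group. The 6 proliferation markers were all higher in both, with sums of 148 to 214 FPKM in GFP and 223 to 259.8 FPKM in Tom. The 8 sebocyte markers summed to 57.6 to 201 FPKM among GFP HF-SCs and 53.5 to 147 FPKM among Tom HF-SCs, and against Co 1 of the 7 tested was higher in GFP and 0 were called in Tom, by limma or at unadjusted p under 0.05. Dgat2l6 was at 0 in all Tom HF-SC libraries. Cidea, a lipid droplet protein of sebocytes, had 2.39, 1.89 and 2.68 FPKM among control HF-SCs and 6.81, 9.48 and 1.16 among GFP HF-SCs, so mice 814 and 815 were above control and mouse 817 was not. Of the 9 bulge markers 6 were lower in GFP and 7 in Tom. Their sum was 1346 FPKM in the control library of mouse 828, where Krt15, a keratin of the bulge, is listed at 0, and 12912 and 13076 FPKM in the other control libraries, beside 3539 to 5929 FPKM in GFP and 3316 to 6462 FPKM in Tom. Without mouse 828, 17 of the 27 sterol and fatty acid genes were called in GFP, where 28.0% of all genes were, and 8 in Tom, where 33.3% were.

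Markers of immune cells and of differentiating keratinocytes also differed from Co. Of the 6 leukocyte markers tested 4 were higher in GFP and 3 in Tom, and the sum over 10 genes was 7.23 to 10.5 FPKM in Co, 118 to 149.8 in GFP and 98 to 197 in Tom. Of the 5 Langerhans cell markers tested 3 were higher in each, with sums over 6 genes of 79.2 to 81.7 FPKM in Co, 167 to 208 in GFP and 113 to 233 in Tom. Of the 6 suprabasal markers 2 were higher in GFP, and 2 were higher and 3 lower in Tom, with sums of 465 to 614 FPKM in Co, 766 to 1643 in GFP and 592 to 792 in Tom. Of the 5 melanocyte markers tested 3 were higher in GFP and 0 were called in Tom, with sums over 6 genes of at most 17.8 FPKM. The part of these cells or states in the changes of the sterol genes was not tested.

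The GFP and Tom fractions of the same mice were then compared with each other, which asks how mutant cells differ from non-mutant cells of the same skin. In HF-SCs none of the 27 genes was called by limma, where 2.83% of all genes tested were higher in GFP and 5.80% were lower. At unadjusted p under 0.05 10 genes passed, where 20.0% of all genes tested did. Of the fold changes 26 of the 27 were positive, and their median was 0.49, beside 0.02 over all genes. With the mouse as a random block 3 genes, Idi1, Hsd17b7 and Dhcr7, were higher in GFP, where 13.6% of all genes tested were called, and with the mouse as a fixed block 0 were, where 4.93% of all genes were.

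This comparison divided the mice. In mouse 814 all 27 genes were higher among GFP HF-SCs than among Tom HF-SCs, with a median difference of 0.91 on the log2 scale, and in mouse 815 26 were, with a median of 0.71. In mouse 817 only 7 were, and the median was -0.19. The same counts and medians were not taken over all genes tested, so a shift of whole libraries within a mouse cannot be told apart from them. Without mouse 817, 20 of the 27 genes were higher in GFP, where 11.7% of all genes tested were. Sqle differed by 1.38, 1.35 and -0.20 and Hsd17b7 by 1.40, 1.41 and -0.15 in mice 814, 815 and 817. Idi1 was higher in GFP in all 3 mice, by 1.10, 0.71 and 0.44. The endothelial sum among Tom HF-SCs was also lower in mouse 817 than in the other 2 mice, at 451 FPKM, and its part was not tested.

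**Figure D4:**
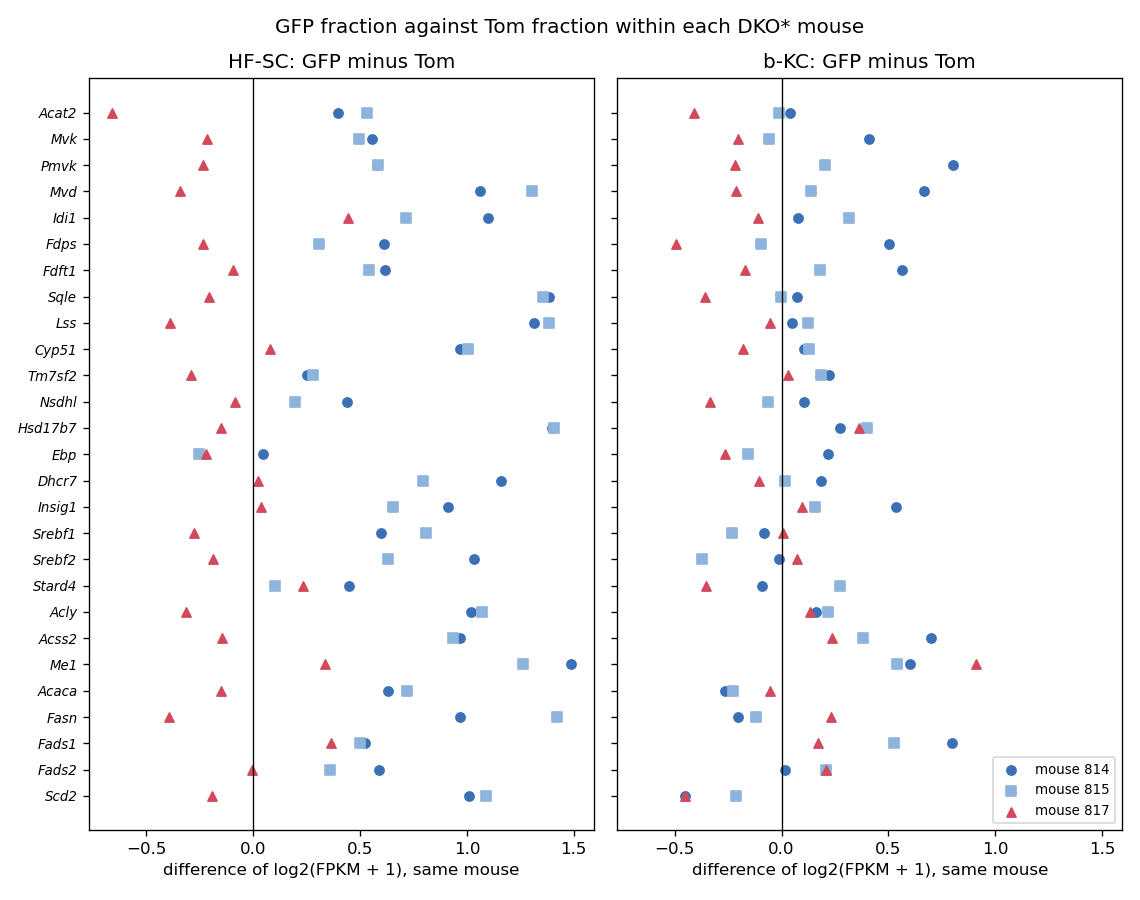
Difference of log2(FPKM + 1) between the GFP and Tom libraries of the same DKO* mouse for each tested gene, in HF-SCs (left) and b-KCs (right), with a symbol for each of mice 814, 815 and 817. In HF-SCs mice 814 and 815 lie to the right of 0 for 27 and 26 genes and mouse 817 for 7. The same was not counted over all genes.

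In b-KCs 0 of the 27 genes were called between GFP and Tom by limma, where 1.19% of all genes tested were higher in GFP and 0.518% were lower, and 1, Fads1, passed at unadjusted p under 0.05, where 11.5% of all genes did. The median difference was 0.04. With the mouse as a fixed block 1 gene, Me1, was called (adjusted p = 0.0472, limma), where 3.72% of all genes tested were, and without mouse 817, 2 were, Me1 and Fads1, where 6.67% of all genes were. Me1 had 83.5, 79.7 and 27.8 FPKM among GFP b-KCs and 54.7, 54.5 and 14.3 FPKM among Tom b-KCs, higher in GFP in all 3 mice.

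Few of these genes were called in basal keratinocytes of DKO* mice. In GFP b-KCs 1 of the 27 genes was higher than among control b-KCs and 2 were lower, where 20.3% of all genes tested were higher and 21.3% were lower. In Tom b-KCs 1 was higher and 4 were lower, where 22.6% were higher and 23.3% were lower. The median log2 fold change was 0.16 in GFP and 0.02 in Tom. None passed the stricter rule, by which 1.87% and 2.75% of all genes were called, and 7 genes passed at unadjusted p under 0.05 in each, where 50.4% and 53.5% of all genes did. The result in GFP turned on mouse 817. Without it 12 genes were higher and 4 were lower, where 29.7% of all genes tested were higher and 29.7% were lower, and without mouse 815 none was called, where 20.5% of all genes were. Without mouse 810, 825 or 828 it was 1, where 27.2 to 34.0% of all genes were called. In Tom the 5 calls became 2 without mouse 810 or 815, 3 without mouse 828 and 12 without mouse 817, where 39.3, 30.0, 33.7 and 57.6% of all genes were called, in the order of the mice.

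Ebp was the gene called higher in both b-KC populations. It was found at 44.1, 39.5 and 34.8 FPKM among control b-KCs, 74.7, 68 and 48.6 for GFP b-KCs and 64.2, 75.8 and 58.6 for Tom b-KCs, so every DKO* library exceeded every control library. Its log2 fold change was 0.66 ± 0.21 (adjusted p = 0.0211, limma) in GFP and 0.73 ± 0.21 (adjusted p = 0.0109, limma) in Tom. The call in GFP was lost without mouse 825, 828, 814 or 815, and that in Tom without mouse 828 or 815. Sqle measured 81.7, 87.7 and 54.2 FPKM among control b-KCs, 152, 140.0 and 72.5 among GFP b-KCs and 145, 140.1 and 93.3 among Tom b-KCs. Its differences of 0.66 ± 0.33 (adjusted p = 0.125, limma) and 0.75 ± 0.33 (adjusted p = 0.0757, limma) did not pass.

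Idi1, Cyp51 and Insig1, which rose among GFP HF-SCs, were not called in b-KCs. Idi1 was found at 134, 138 and 89 FPKM among control b-KCs, 179, 179.6 and 107 for GFP b-KCs and 169.9, 144 and 116 for Tom b-KCs. Cyp51 measured 60.3, 53.4 and 33.3 FPKM among control b-KCs, 70.5, 74.4 and 35.5 among GFP b-KCs and 65.4, 67.9 and 40.4 among Tom b-KCs. In both genes the GFP and Tom libraries of mouse 817 were lower than those of mice 814 and 815. Insig1 measured 18.2, 18.9 and 12.7 FPKM among control b-KCs, 21.7, 23.2 and 14 among GFP b-KCs and 14.7, 20.7 and 13.1 among Tom b-KCs, with 95% intervals of the log2 fold change of -0.30 to 0.74 and -0.56 to 0.48.

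Hsd17b7 fell among Tom b-KCs. It was found at 30.0, 24.1 and 19.1 FPKM among control b-KCs, 17.9, 17.3 and 12.6 for GFP b-KCs and 14.6, 12.8 and 9.58 for Tom b-KCs, and all DKO* libraries lay below all control libraries. The log2 fold change was -0.92 ± 0.27 (adjusted p = 0.0109, limma) in Tom and -0.58 ± 0.27 (adjusted p = 0.0945, limma) in GFP, the second short of the threshold. The call was lost without mouse 810. Tm7sf2 was lower among Tom b-KCs, with 2.87, 2.43 and 2.22 FPKM against 6, 3.64 and 3.51 FPKM in Co and a log2 fold change of -0.59 ± 0.18 (adjusted p = 0.0156, limma), a call lost without mouse 810 or 815.

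Srebf1 fell in both b-KC populations. It measured 79.4, 80.8 and 75.2 FPKM among control b-KCs, 38.1, 45.5 and 55.1 among GFP b-KCs and 40.4, 53.6 and 54.9 among Tom b-KCs. All DKO* libraries lay below all control libraries, mouse 817 included, and the log2 fold change was -0.77 ± 0.25 (adjusted p = 0.023, limma) in GFP and -0.66 ± 0.25 (adjusted p = 0.0405, limma) in Tom. The call in GFP was lost without mouse 810, 825, 828 or 815, and that in Tom without any 1 of mice 810, 825, 828, 814 and 815. Srebf2 was found at 60.2, 75.4 and 56 FPKM among control b-KCs, 56.7, 54.3 and 59.9 for GFP b-KCs and 57.2, 70.6 and 57 for Tom b-KCs, overlapping in all groups, with 95% intervals of -0.61 to 0.30 and -0.50 to 0.41.

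Acss2 (chromosome 2, 155343684 to 155411460) had the largest change of the members in b-KCs. It fell from 22, 17 and 12.4 FPKM among control b-KCs to 11.9, 7.52 and 4.65 in GFP and 6.93, 5.55 and 3.8 in Tom, with no overlap with control. The log2 fold change was -1.05 ± 0.30 (adjusted p = 0.0127, limma) in GFP and -1.49 ± 0.30 (adjusted p = 0.00112, limma) in Tom. The call in GFP was lost without mouse 810 or 815, and that in Tom was kept whichever mouse was left out. Fasn measured 49.5, 44.8 and 38.3 FPKM among control b-KCs, 22.6, 23.6 and 37.7 among GFP b-KCs and 26.2, 25.8 and 32 among Tom b-KCs. Acly was found at 110.4, 103 and 85.1 FPKM among control b-KCs, 79.9, 67.8 and 65.7 for GFP b-KCs and 71.3, 58.1 and 59.8 for Tom b-KCs. In both genes the DKO* libraries lay below the control libraries, yet neither passed, at -0.67 ± 0.35 (adjusted p = 0.138, limma) and -0.48 ± 0.26 (adjusted p = 0.158, limma) in GFP. Of the fatty acid synthesis genes Me1 had a log2 fold change of -0.05 ± 0.51 (adjusted p = 0.948, limma) in GFP with all mice, although its mean of 63.7 FPKM was above the control mean of 59.8, and without mouse 817 it was 0.45 and called (adjusted p = 0.0112, limma).

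Whether HF-SCs and b-KCs differed in their change against control was tested by an interaction term. For GFP 11 of the 27 genes had a larger change in HF-SCs, and 0 a smaller one, where 7.31% of all genes tested had a larger and 5.22% a smaller change. All 27 differences were positive, with a median of 0.90 beside -0.02 over all genes. The 11 genes were Mvd, Idi1, Sqle, Lss, Cyp51, Hsd17b7, Insig1, Acly, Fasn, Fads2 and Scd2, of which Fads2 passed the filter only through DKO* HF-SC libraries. Hsd17b7 had the smallest adjusted p, with a difference of 1.89 ± 0.38 (adjusted p = 0.00438, limma). For Tom only Hsd17b7 passed, at 1.35 ± 0.38 (adjusted p = 0.024, limma), where 10.3% of all genes tested had a larger and 5.58% a smaller change, and the median was 0.60. The GFP count rested on few libraries. It was 1 without mouse 810, 2 without mouse 825 or 828, 3 without mouse 814 and 0 without mouse 815, where 3.35 to 7.82% of all genes tested were called, and 19 without mouse 817, where 30.8% were. The single call for Tom was lost without mouse 810, 825, 828 or 815. Without mouse 814, 2 genes were called, where 11.9% of all genes were. Without mouse 817, and also with the mouse as a random block, 6 were, where 25.4% and 23.9% of all genes were.

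Levels among GFP HF-SCs may be set beside those of control b-KCs. Cyp51 had a mean of 54.5 ± 16.6 FPKM (SD, n = 3) among GFP HF-SCs and 49 ± 14 among control b-KCs, and Idi1 had 149 ± 33.8 and 120.3 ± 27.1. For Fdps these means were 154 ± 61.2 and 285 ± 60.5 FPKM. No test was made of these pairs, whose groups differ in both cell type and mice.

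Genes of the same pathways outside the 29 were also counted, from lists chosen with earlier results of these data known. Of 6 further genes of sterol and isoprenoid synthesis 5 were higher and 0 lower among GFP HF-SCs than among controls, 2 were higher among Tom HF-SCs, 0 were called among GFP b-KCs and 1 was higher among Tom b-KCs, where 18.5%, 22.3%, 20.3% and 22.6% of all genes tested were higher. Msmo1, which acts after Cyp51, was found at 32.4, 31.8 and 22.7 FPKM among control HF-SCs, 169, 144 and 76.7 for GFP HF-SCs and 89.8, 82.9 and 67.6 for Tom HF-SCs, with log2 fold changes of 2.07 ± 0.38 (adjusted p = 0.000547, limma) and 1.44 ± 0.38 (adjusted p = 0.00644, limma). Sc5d, a sterol desaturase, was higher among GFP HF-SCs by 1.19 ± 0.31 (adjusted p = 0.00667, limma). Lbr, a sterol reductase of the nuclear envelope, was higher among GFP HF-SCs by 0.68 ± 0.12 (adjusted p = 0.000284, limma), among Tom HF-SCs by 0.75 ± 0.12 (adjusted p = 9.91e-05, limma) and among Tom b-KCs by 0.53 ± 0.12 (adjusted p = 0.00187, limma).

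Of 4 genes of SREBP processing, 1 was called among GFP HF-SCs, 1 among Tom HF-SCs and 2 in each b-KC population, where 38.5%, 44.4%, 41.6% and 45.9% of all genes tested were called. Scap, which escorts SREBPs to the Golgi, was higher among GFP HF-SCs by 0.65 ± 0.22 (adjusted p = 0.03, limma). Mbtps1, the protease that cuts SREBPs first, was lower among Tom HF-SCs, with a log2 fold change of -0.67 ± 0.25 (adjusted p = 0.0423, limma), among GFP b-KCs, with -0.78 ± 0.25 (adjusted p = 0.0221, limma), and among Tom b-KCs, with -0.71 ± 0.25 (adjusted p = 0.031, limma). Insig2, the other retention protein, was lower among GFP b-KCs, with a log2 fold change of -0.34 ± 0.12 (adjusted p = 0.0361, limma), and among Tom b-KCs, with -0.57 ± 0.12 (adjusted p = 0.00167, limma).

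Of 14 further genes of fatty acid synthesis and activation tested, 5 were higher and 1 lower among GFP HF-SCs than among controls, and 3 were higher and 2 lower among Tom HF-SCs. The shares of all genes tested were 18.5% higher and 20.0% lower in GFP and 22.3% and 22.1% in Tom. In GFP b-KCs 0 were higher and 8 lower, and among Tom b-KCs 1 was higher and 7 lower, where 20.3% and 22.6% of all genes were higher and 21.3% and 23.3% lower. Mid1ip1, a regulator of acetyl-CoA carboxylase, measured 5.19, 7.13 and 6.05 FPKM among control HF-SCs, 35.2, 43.2 and 29.6 among GFP HF-SCs and 16.5, 18.9 and 22.3 among Tom HF-SCs. The 3 HF-SC groups did not overlap, and its log2 fold change was 2.37 ± 0.19 (adjusted p = 2.06e-07, limma) in GFP and 1.51 ± 0.19 (adjusted p = 1.24e-05, limma) in Tom. Between the HF-SC fractions it was higher in GFP by 0.86 ± 0.19 (adjusted p = 0.0067, limma), as was Acsl1, which activates long-chain fatty acids, by 0.92 ± 0.19 (adjusted p = 0.00549, limma).

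Among these genes the largest falls in b-KCs were those of Scd1 and Elovl6. Scd1, the stearoyl-CoA desaturase of sebocytes and liver, was found at 366, 366 and 277 FPKM among control b-KCs, 98.5, 85.4 and 54.5 for GFP b-KCs and 63.1, 55.5 and 33.5 for Tom b-KCs, with log2 fold changes of -2.10 ± 0.49 (adjusted p = 0.00347, limma) and -2.74 ± 0.49 (adjusted p = 0.000376, limma). Elovl6, which extends palmitate, measured 55.9, 48.3 and 45.7 FPKM among control b-KCs, 14.2, 13.8 and 9.27 among GFP b-KCs and 8.26, 8.82 and 7.1 among Tom b-KCs, with log2 fold changes of -1.94 ± 0.29 (adjusted p = 0.000183, limma) and -2.49 ± 0.29 (adjusted p = 1.36e-05, limma). Acacb, the mitochondrial acetyl-CoA carboxylase, fell by 1.26 on the log2 scale in GFP (adjusted p = 0.000517, limma).

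Some sebocyte markers were lower in b-KCs as well. Against Co 3 of the 7 tested were lower in GFP and 5 in Tom, and none was higher. Their summed level over 8 genes did not follow this count among GFP b-KCs, where it was 666 and 557 FPKM in mice 814 and 815, above all control libraries, and 136 FPKM in mouse 817, below them. Among Tom b-KCs it was 85.1 to 301 FPKM, and no marker was at 0 throughout a b-KC group. Cidea was found at 36.3, 34.1 and 27.7 FPKM among control b-KCs, 12.1, 11.1 and 3.15 for GFP b-KCs and 2.23, 5.31 and 0.955 for Tom b-KCs. Of the 6 suprabasal markers tested 4 were lower in each population, while 4 proliferation markers rose in GFP and 6 in Tom. Of the 7 basal keratinocyte markers 3 were lower in each, with sums of 16168 to 17464 FPKM among control b-KCs, 6356 to 10388 in GFP and 5797 to 16096 in Tom. The 9 bulge markers summed to 3115 to 3177 FPKM in Co, 543 to 1175 in GFP and 192 to 710 in Tom, and in GFP 2 of them were lower and 0 higher. Of the 6 leukocyte markers tested 3 were higher in GFP and 1 in Tom, and the sum over 10 genes was 4.48 to 7.59 FPKM in Co, 234 to 405 in GFP and 171 to 807 in Tom. Of the 5 Langerhans cell markers tested 2 were higher in GFP and 3 in Tom, with sums over 6 genes of 68.3 to 92.8 FPKM in Co, 185 to 391 in GFP and 167 to 624 in Tom. The part of these cells in the falls of Srebf1, Acss2, Scd1 and Elovl6 was not tested.

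**Figure D5:**
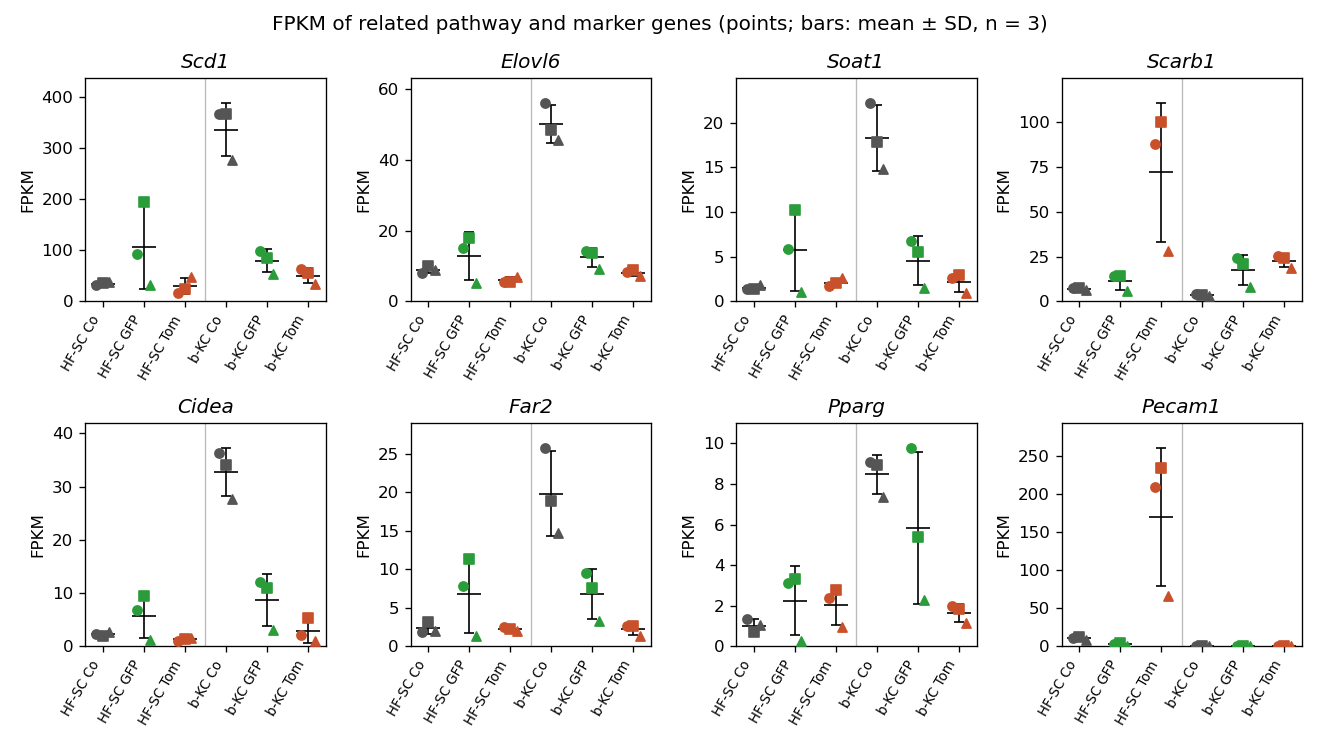
FPKM of Scd1, Elovl6, Soat1 and Scarb1 of the related pathways, the sebocyte markers Cidea, Far2 and Pparg and the endothelial marker Pecam1 in each library (circles for mice 810 and 814, squares for 825 and 815, triangles for 828 and 817), with the mean ± SD of 3 libraries. Scd1 runs from 277 to 366 FPKM among control b-KCs and from 33.5 to 63.1 among Tom b-KCs, and Pecam1 from 66.3 to 234 among Tom HF-SCs.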

How the data were processed

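Libraries were prepared from 18 sorted populations of ear skin, 3 mice a group, with a SMART-Seq v4 and Nextera XT protocol that keeps no strand information, and sequenced as single reads. The authors aligned reads to mm9 with TopHat 2.0.10 and Bowtie 1.0.0, allowing reads with several matches, and estimated levels with Cufflinks 2.2.1; per the labels, the processing notes also name GRCm38/mm10, without a role. The deposited values are FPKM for each gene and library. Whether a further normalization between libraries was applied is not given in the sources used here. Counts were not analysed here, and depth was inferred from the steps between low values as 16400000 to 26300000 reads per library.

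Genes reaching 1 FPKM in 3 or more libraries were tested on log2(FPKM + 1). The model (limma 3.58.1 under R 4.3.3) had 6 group means over 18 libraries and moderated variances with a trend, and p-values were adjusted by Benjamini-Hochberg within each comparison. Interactions are the change in HF-SCs minus that in b-KCs. On simulated data for GFP HF-SCs against Co over 12751 genes, the calls recovered 78 of 100 genes with a true log2 change of 1 and 99 of 100 with one of 2, and took in 14 of 12551 unchanged genes. The simulated noise was independent between libraries, without an effect of the mouse. Far fewer genes were changed than the 38.5% called in the data, so these rates are not those of the calls reported here. Figures and summaries used Python 3.11.15, pandas 2.3.3, numpy 2.4.6 and matplotlib 3.10.9. Positions are those of NCBIM37, and promoters are from RefSeq on GRCm38.p6.

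The members and lists were chosen with earlier results of these data known. Values of each library are given, in each role, for up to 3 called genes with the largest change per comparison and for Srebf1, Srebf2 and Insig1, and from each further list for up to 3 called genes. Some genes that this rule names are not reported here. Cidea was chosen after its values were seen. Samples were grouped by their labels. Libraries of different cell fractions come from the same mouse, and their deviations from the group means correlated at r = 0.08 to 0.70 across 12751 genes, so the mouse was also fitted as a block (consensus correlation 0.274). Each p-value of the main model rests on the spread between libraries within the 6 groups, pooled, with libraries treated as independent. For comparisons within the same mice this is not the spread of the differences within a mouse, which the fixed block uses. Alternatives were other pseudocounts, no filter, fits of only the groups compared, no trend, rescaled libraries, blocks, stricter calls and leaving out each mouse.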

Additional observations from a re-analysis of the deposited data

Results flagged for a closer look

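For 12 results the change against control differed between HF-SCs and b-KCs by the interaction test itself (limma, 3 mice a group). Each value is the change in HF-SCs minus that in b-KCs on the log2(FPKM + 1) scale. In GFP cells the difference was 2.02 ± 0.58 (SE) for Scd2, 1.89 ± 0.38 for Hsd17b7, 1.86 ± 0.57 for Mvd and 1.66 ± 0.50 for Fasn. It was 1.58 ± 0.43 for Cyp51, 1.55 ± 0.47 for Sqle, 1.40 ± 0.43 for Lss and 1.38 ± 0.37 for Acly. It was 1.23 ± 0.35 for Insig1, 1.15 ± 0.34 for Idi1 and 0.99 ± 0.28 for Fads2, which passed the filter on low values only through DKO* HF-SC libraries. Adjusted p-values from limma ran from 0.00438 for Hsd17b7 to 0.0427 for Mvd. In Tom cells the difference was 1.35 ± 0.38 for Hsd17b7 (adjusted p = 0.024, limma). Of all genes tested 7.31% had a larger change in HF-SCs in GFP and 10.3% in Tom. Leaving out 1 of mice 810, 825, 828, 814 and 815 at a time reduced the count in GFP from 11 to between 0 and 3, where 3.35 to 7.82% of all genes were called. The call in Tom was lost without mouse 810, 825, 828 or 815, where 7.04 to 10.0% of all genes were called. The same difference was positive and called for 6 of 6 proliferation markers in both fractions, for 3 of 7 sebocyte markers in GFP and 4 of 7 in Tom, for 4 of 6 suprabasal markers in GFP and for 9 of 10 endothelial markers in Tom. In Tom 0 of the sebocyte markers were called in HF-SCs against Co, by limma or at unadjusted p under 0.05, and 5 were lower in b-KCs. Their part in these differences was not tested.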

How the results depend on the processing

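Of 3483 values for single genes under an alternative, 3146 kept their side of the threshold, among them 79 that were not called and whose sign turned, 101 passed newly, 235 no longer passed and 1 turned its sign with a call: Me1 among GFP b-KCs against Co was -0.05 on the log2 scale with all mice, ran from -0.32 without mouse 814 to 0.45 without mouse 817 and was called in the latter case (adjusted p = 0.0112, limma). The cause was not tested. Fold changes are limited by 3 mice a group, and low genes by depth.

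Leaving out 1 mouse at a time, the number of the 27 genes called ran from 11 to 22 among GFP HF-SCs against Co, 7 to 19 among Tom HF-SCs against Co, 0 to 16 among GFP b-KCs against Co and 2 to 12 among Tom b-KCs against Co. The share of all genes tested that was called moved as well. In the same order it ran from 25.8 to 51.5%, 31.0 to 59.4%, 20.5 to 59.4% and 30.0 to 57.6%. The number of the 27 genes called ran from 0 to 20 among GFP HF-SCs against Tom, 0 to 2 among GFP b-KCs against Tom, 22 to 24 between controls, 0 to 19 for the GFP interaction and 0 to 6 for the Tom interaction. Here the share of all genes ran from 3.33 to 22.9%, 0.00784 to 6.67%, 37.9 to 39.1%, 3.35 to 30.8% and 7.04 to 25.4%, in the same order.

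With an adjusted p under 0.01 the count became 6 among Tom HF-SCs, 0 among GFP b-KCs and 1 among Tom b-KCs, each against Co, 1 for the GFP interaction and 0 for the Tom interaction. Of all genes tested 29.6%, 24.5%, 30.8%, 5.21% and 8.05% were called, in this order. With a log2 fold change of 2 or more in either direction as well, the count became 2 among GFP HF-SCs, 0 among Tom HF-SCs, GFP b-KCs and Tom b-KCs, 4 between controls and 0 for both interactions. Under this rule 3.07%, 4.09%, 1.87%, 2.75% and 5.65% of all genes were called, and 0.863% and 1.98% for the GFP and Tom interactions. Fitting only the groups compared gave 7 among GFP b-KCs, 9 among Tom b-KCs and 4 for the Tom interaction, where 46.2%, 56.0% and 15.1% of all genes were called. Without the filter, with 19924 genes tested, the GFP interaction had 5, where 8.52% of all genes were called. The stricter calls lower the count by construction, and the cause of the other changes was not tested.

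With the mouse as a random replicate block, 3 genes were called among GFP HF-SCs against Tom and 6 for the Tom interaction, where 13.6% and 23.9% of all genes were. With the mouse as a fixed block 1 was called among GFP b-KCs against Tom, where 3.72% of all genes were. Under the random block the count was 20 among GFP HF-SCs against Co and 15 for the GFP interaction, where 39.6% and 22.6% of all genes were called. No other count moved by over 1.5 times under the blocks.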

Other observations

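Genes of sterol uptake, export and storage were measured beside those of synthesis. Of 11 such genes tested, 3 were lower and 0 higher among GFP HF-SCs than among controls, 3 were higher and 2 lower among Tom HF-SCs, 1 was higher and 5 lower among GFP b-KCs, and 1 was higher and 6 lower among Tom b-KCs. Of all genes tested 18.5% were higher and 20.0% lower in the first of these comparisons, 22.3% and 22.1% in the second, 20.3% and 21.3% in the third and 22.6% and 23.3% in the last. Abca1, which exports cholesterol, was found at 8.28, 8.77 and 11.2 FPKM among control b-KCs, 2.92, 3.15 and 5.54 for GFP b-KCs and 4.03, 2.96 and 2.67 for Tom b-KCs, and its log2 fold change against Co was -1.13 ± 0.25 (adjusted p = 0.00267, limma) and -1.31 ± 0.25 (adjusted p = 0.000693, limma). In GFP HF-SCs it was lower, with a log2 fold change of -0.70 ± 0.25 (adjusted p = 0.0377, limma). Vldlr, a lipoprotein receptor, was lower in all 4 DKO* populations, with log2 fold changes of -0.49 ± 0.17 among GFP HF-SCs, -0.79 ± 0.17 among Tom HF-SCs, -1.01 ± 0.17 among GFP b-KCs and -0.94 ± 0.17 among Tom b-KCs.

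Soat1, which stores cholesterol as esters, measured 22.2, 17.8 and 14.8 FPKM among control b-KCs, 6.74, 5.49 and 1.49 among GFP b-KCs and 2.65, 2.97 and 0.908 among Tom b-KCs, and it fell in both, with log2 fold changes of -1.93 ± 0.50 (adjusted p = 0.00683, limma) and -2.65 ± 0.50 (adjusted p = 0.000601, limma). Scarb1, the receptor that takes up cholesterol from high density lipoprotein, was found at 7.44, 7.55 and 6.36 FPKM among control HF-SCs, 14.5, 14.2 and 5.8 for GFP HF-SCs and 88, 100.3 and 28.1 for Tom HF-SCs. It was higher than Co among Tom HF-SCs by 2.98 ± 0.44 (adjusted p = 6.54e-05, limma), where all 10 endothelial markers were higher too, and among GFP b-KCs by 1.86 ± 0.44 (adjusted p = 0.00406, limma) and Tom b-KCs by 2.34 ± 0.44 (adjusted p = 0.000621, limma). The part of endothelial cells in the Tom HF-SC value was not tested.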
